A study of Mus musculus with 6 samples.

Results

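The 10 genes described here encode subunits of the vacuolar proton pump (V-ATPase), and they were chosen by symbol as the rows Atp6v0b, Atp6v0c, Atp6v0d1, Atp6v0e, Atp6v1a, Atp6v1b2, Atp6v1d, Atp6v1e1, Atp6v1f and Atp6v1g1, with pseudogenes left out. They are 10 of the 19233 genes of the deposited table. RNA was sequenced from polysome fractions, which hold mRNAs being read by several ribosomes at once, of RAW264.7, a male mouse macrophage-like cell line. Both groups were cells titled M2, the alternatively activated state. One group of 3 libraries came from cells given 500 nM BMH-21, an RNA polymerase I inhibitor, for 24 h beginning 24 h after polarization, and the other 3 libraries came from cells given the solvent DMSO. The protocol text, the same for both groups, is written for bone-marrow-derived macrophages, polarized with either 20 ng/ml IL-4 alone or LPS plus interferon gamma, and it names no agent for the line itself. The comparison asked how inhibition of RNA polymerase I, which makes the ribosomal RNA precursor, altered the polysome-associated mRNAs of these cells. No unfractionated RNA was used here, so the amount of an mRNA per cell and its share on polysomes cannot be told apart, and neither can fewer cells of a type and less RNA per cell.

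The V-ATPase is a rotary motor that spends ATP to move protons into lysosomes, endosomes and secretory vesicles. Its cytosolic V1 sector hydrolyses ATP and turns a central axle, its membrane V0 sector holds a ring of proteolipid subunits that carries the protons, and peripheral stalks keep the static parts from turning with the ring. In macrophages the pump acidifies phagosomes and lysosomes, and in osteoclasts, which come from the same lineage, it acidifies the bone surface. Many pump genes carry an element with the core CACGTG, the E-box bound by transcription factors of the TFEB family.

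Values are FPKM, which divide the fragments of a gene by its transcript length and by library size. The steps between low values gave depths of 21610000 to 24070000 reads with DMSO and 18770000 to 22560000 reads with BMH-21. Of 9748 genes that reached 1 FPKM in 3 or more libraries, limma called 1938 higher (19.9%) and 5690 lower (58.4%) with BMH-21 at an adjusted p under 0.05, 78.3% in all, and the median change over all tested genes was −0.23 on the log2(FPKM + 1) scale. The macrophage markers Csf1r, Cd68 and Adgre1 were at 56.2, 805 and 40.7 FPKM with DMSO and 49.2, 885 and 22.7 FPKM with BMH-21. All 8 macrophage markers followed were above 1 FPKM, 5 were called higher and 3 lower, and Fcgr1 had the largest fall (−1.06 on the log2 scale). Lyz2, lysozyme, alone was at 9471 FPKM with DMSO and 17503 FPKM with BMH-21, and the other 7 had a sum of 1575 to 1600 FPKM with DMSO and 1856 to 1881 FPKM with BMH-21. Of the M2 markers, Arg1 was at 4.29 FPKM with DMSO and 0.692 FPKM with BMH-21, and Mrc1 at 1.2 and 0.919 FPKM. Fibroblast markers summed to at most 0.0649 FPKM and the B cell marker Cd79a reached at most 0.0608 FPKM in any library, and T cell markers were not analysed here.

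One marker list set libraries apart. The epithelial markers Epcam, Cdh1, Krt8 and Krt18 had a sum of 0 to 9.66 FPKM per DMSO library and 10.9 to 13.9 FPKM per BMH-21 library. Krt18, a keratin, was listed at 0 and 0.0644 FPKM in DMSO replicates 1 and 2, at 5.47 FPKM in DMSO replicate 3, and at 8.89, 6.41 and 8.09 FPKM in the BMH-21 libraries. DMSO replicate 3 was thus nearer to the BMH-21 libraries than to its own group in these genes. Against DMSO replicate 3 alone, a comparison added after the data were seen, the median change of the pump subunits was 0.24 on the log2 scale. That is 0.45 above the median of all tested genes. Where calls are given for that comparison, the spread comes from the 3 BMH-21 libraries, and the single DMSO library is assumed to vary like them. Without DMSO replicate 3, 7 subunits were called higher and 2 lower. Of 9317 genes tested there, 1808 were called higher and 5108 lower. The part of these markers in other results was not tested.

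Of the 10 subunits, 7 rose, 2 fell and 1 did not pass the test, against 19.9% of all tested genes called higher and 58.4% called lower. The libraries of the groups did not overlap for 9 of the 10, 7 with BMH-21 above and 2 with BMH-21 below, where 79.8% of all tested genes did not overlap, 20.3% above and 59.5% below. Their median change was 0.26 on the log2(FPKM + 1) scale, and 0.50 above the median of all tested genes. Each of the 10 passed the filter on low values, and their lowest value in any library was 24.3 FPKM. The 4 largest rises were those of the proteolipid genes Atp6v0c and Atp6v0b, of Atp6v0e, a small membrane subunit, and of Atp6v1f, a small subunit of the central rotor, which gained between 51.2% and 80.7% in mean FPKM. The 2 that fell were Atp6v0d1, the collar between the rotor axle and the proteolipid ring, and Atp6v1b2, the non-catalytic nucleotide-binding subunit. Summed over the 10 genes, the level was 1785 to 1834 FPKM per DMSO library and 2518 to 2682 FPKM per BMH-21 library.

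**Figure D1:**
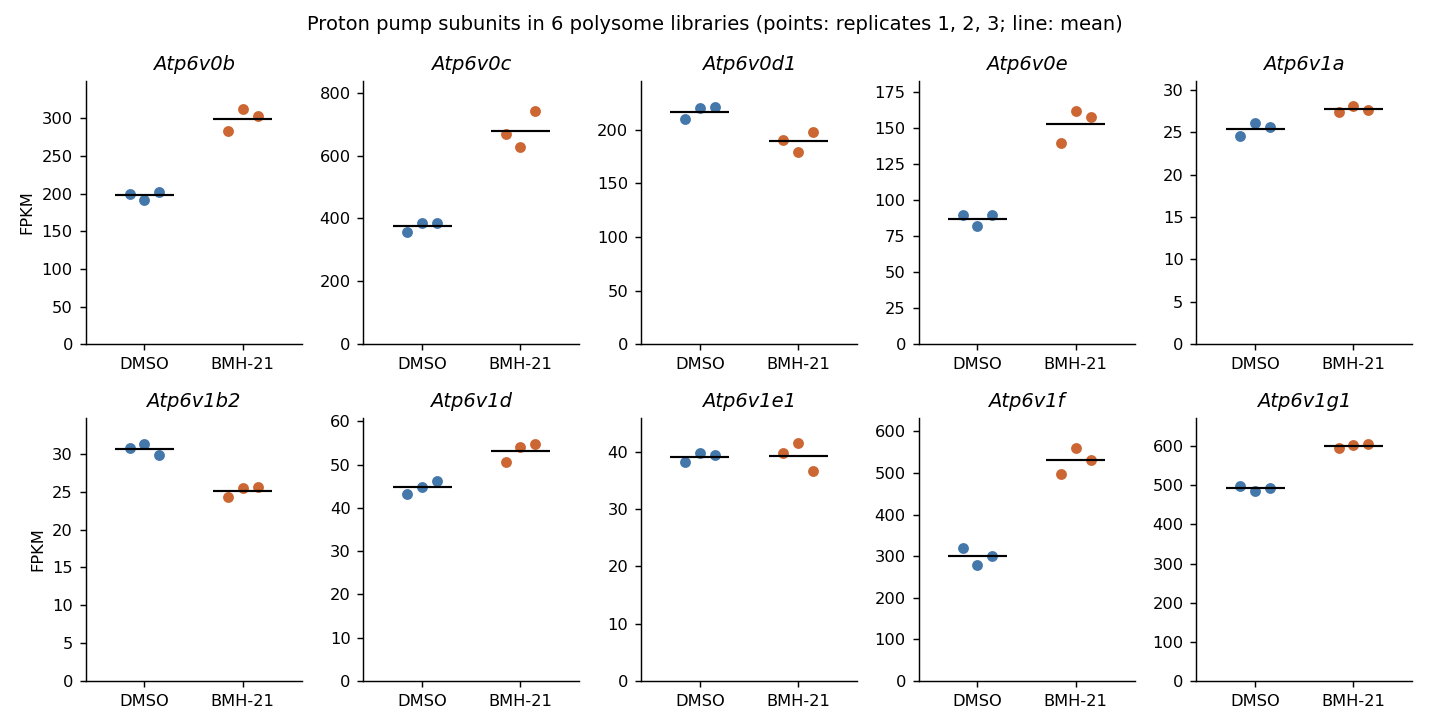
FPKM (vertical axes, each from 0) of the 10 subunits in the 3 DMSO and 3 BMH-21 libraries; points are replicates 1, 2 and 3 from left to right and lines are group means. All BMH-21 points lie above all DMSO points in 7 panels and below them in those of Atp6v0d1 and Atp6v1b2, while the groups overlap for Atp6v1e1.

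One subunit needs its sequence shown before its values. Atp6v0c (chromosome 17, 24163866 to 24169702, minus strand, GRCm38) has a processed pseudogene, Atp6v0c-ps2 (chromosome 6, 37806086 to 37806550), which has a row of its own in the table. Over the 465 bases of the pseudogene record, which match the whole Atp6v0c coding sequence of 465 bases, 464 bases are the same (99.8%), with an identical run of 354 bases. The single substitution is T111C, counted from 1 at the first base of the Atp6v0c start codon, with the Atp6v0c base first. The stretch from base 67 to base 156 of both GENCODE M21 records is shown 5′ to 3′ because it holds the one base, in capitals, at which reads from the coding sequence could tell the copies apart:
Atp6v0c: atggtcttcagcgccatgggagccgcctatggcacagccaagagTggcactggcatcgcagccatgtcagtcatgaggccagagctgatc
Atp6v0c-ps2: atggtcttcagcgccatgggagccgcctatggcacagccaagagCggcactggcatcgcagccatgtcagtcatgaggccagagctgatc

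The proteolipid ring of V0, which carries the protons across the membrane, is made of the products of Atp6v0c and Atp6v0b. Atp6v0c, the main ring subunit, was at 357, 386 and 384 FPKM in DMSO replicates 1 to 3 and at 668, 628 and 742 FPKM in BMH-21 replicates 1 to 3. All BMH-21 values exceeded all DMSO values, and the log2 fold change was 0.85 ± 0.06 (SE; adjusted p = 7.45e-07 by limma). The pseudogene row stood at 316 ± 19 FPKM with DMSO and 554 ± 69 FPKM with BMH-21 (SD, n = 3), and with 1 base between the copies the split of reads between these rows is uncertain. With both rows summed, an alternative added after the data were seen, the log2 fold change was 0.83 (adjusted p = 1.18e-06 by limma). The sum is of FPKM, each divided by its own length, so reads of the rows do not weigh alike in it. Atp6v0b (chromosome 4, 117884326 to 117887333), the c″ ring subunit, was at 200, 192 and 202 FPKM with DMSO and at 283, 312 and 303 FPKM with BMH-21. These groups did not overlap either, and the log2 fold change was 0.59 ± 0.05 (SE; adjusted p = 1.11e-06 by limma). Exons of Atp6v0b overlap those of Gm12841 on the opposite strand, and without stated strand their reads cannot be told apart.

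Among the remaining V0 genes, the small subunit gene and the collar gene moved in opposite directions. Atp6v0e (chromosome 17, 26663231 to 26699647), which encodes a small hydrophobic subunit, was at 89.7, 81.8 and 89.8 FPKM with DMSO and at 140, 162 and 158 FPKM with BMH-21. All 3 BMH-21 libraries were higher than any DMSO library, with a log2 fold change of 0.81 ± 0.06 (SE; adjusted p = 9.82e-07 by limma). Atp6v0d1 (chromosome 8, 105524465 to 105566047) was at 210, 220 and 221 FPKM with DMSO and at 190, 179 and 198 FPKM with BMH-21. Here all BMH-21 libraries were lower, at a log2 fold change of −0.20 ± 0.05 (SE; adjusted p = 0.00267 by limma), which is 0.04 above the median of all tested genes. That direction rests on the scaling between libraries: under median-ratio scaling it was 0.06 (adjusted p = 0.258) and under upper-quartile scaling 0.12 (adjusted p = 0.0279).

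In the V1 head, ATP is hydrolysed at sites formed by the catalytic A and the non-catalytic B subunits. Atp6v1a (chromosome 16, 44085402 to 44139705), the A subunit, was at 24.6, 26.0 and 25.6 FPKM with DMSO and at 27.4, 28.0 and 27.6 FPKM with BMH-21. The groups did not overlap, though they lay close, and the log2 fold change was 0.12 ± 0.04 (SE; adjusted p = 0.0174 by limma). The Atp6v1a call was lost without DMSO replicate 1 (0.10, adjusted p = 0.0574), against DMSO replicate 3 alone (0.11, adjusted p = 0.147) and with equal column totals (0.00, adjusted p = 0.959). Atp6v1b2 (chromosome 8, 69088646 to 69113711), the B subunit, was at 30.7, 31.3 and 29.9 FPKM with DMSO and at 24.3, 25.5 and 25.6 FPKM with BMH-21. Each BMH-21 library was below each DMSO library, at a log2 fold change of −0.28 ± 0.04 (SE; adjusted p = 0.000118 by limma), 0.04 below the median of all tested genes. The Atp6v1b2 call was lost with median-ratio scaling (−0.03, adjusted p = 0.523) and the sign turned with upper-quartile scaling (0.03, adjusted p = 0.482).

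The central rotor of V1 is built from the D and F subunits. Atp6v1f (chromosome 6, 29467718 to 29470512), the F subunit, was at 320, 278 and 301 FPKM with DMSO and at 499, 561 and 532 FPKM with BMH-21. That is a gain of 77.0% in mean FPKM, with no overlap and a log2 fold change of 0.82 ± 0.06 (SE; adjusted p = 8.28e-07 by limma). Atp6v1d (chromosome 12, 78840725 to 78861638), which encodes the axle itself, was at 43.2, 44.9 and 46.1 FPKM with DMSO and at 50.6, 54.2 and 54.7 FPKM with BMH-21. It also rose without overlap, at a smaller log2 fold change of 0.24 ± 0.04 (SE; adjusted p = 0.000577 by limma).

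The E and G subunits pair up as the peripheral stalks. Atp6v1g1 (chromosome 4, 63544772 to 63550750), the G subunit, was at 499, 486 and 494 FPKM with DMSO and at 596, 602 and 606 FPKM with BMH-21. The 3 libraries of each group lay close together and the groups were apart, with a log2 fold change of 0.29 ± 0.04 (SE; adjusted p = 4.57e-05 by limma). With quantile normalization the Atp6v1g1 call was lost (0.01, adjusted p = 0.734). Its partner Atp6v1e1 (chromosome 6, 120794305 to 120822793) was at 38.2, 39.7 and 39.4 FPKM with DMSO and at 39.8, 41.5 and 36.6 FPKM with BMH-21. BMH-21 replicate 3 was the lowest of the 6 and BMH-21 replicate 2 the highest, so the groups overlapped. For Atp6v1e1 the log2 fold change was 0.01 with a 95% interval of −0.10 to 0.12 (adjusted p = 0.920 by limma). It passed as higher under median-ratio (0.25, adjusted p = 0.00133) and upper-quartile scaling (0.32, adjusted p = 0.000372), and its exons overlap those of Slc25a18 on the opposite strand.

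**Figure D2:**
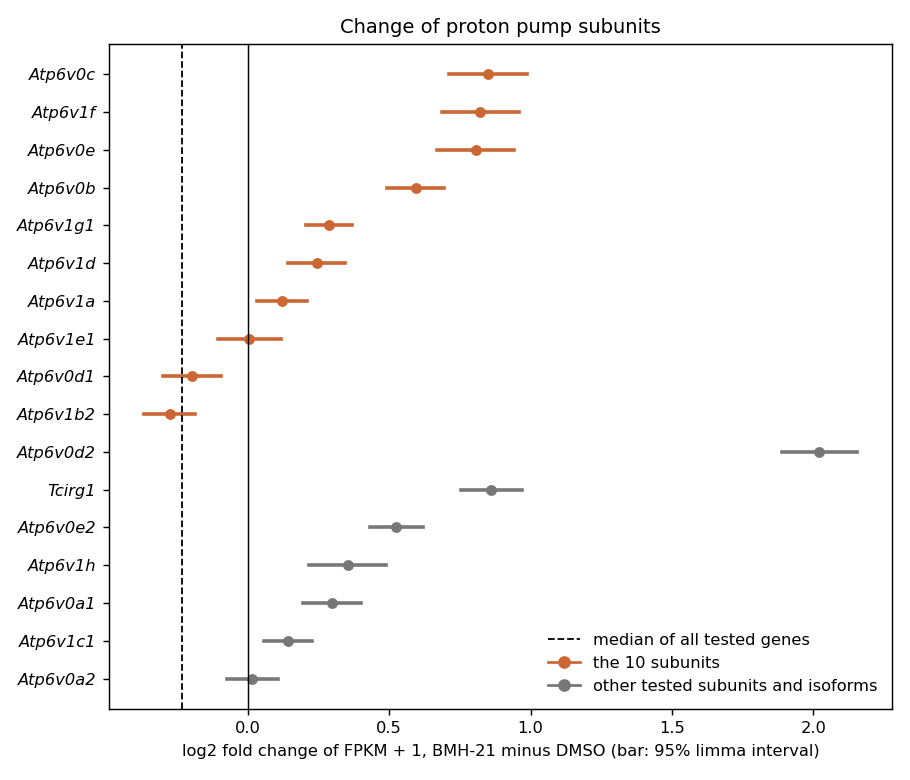
Log2 fold change of FPKM + 1, BMH-21 minus DMSO (horizontal axis), with 95% limma intervals, for the 10 subunits and for 7 other tested subunits and isoforms; the dashed line is the median of all tested genes at −0.23. Atp6v0c, Atp6v1f, Atp6v0e and Atp6v0b lead the 10 subunits, and Atp6v0d2 stands apart from all others at 2.02.

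The members spanned a 19.4-fold range of mean FPKM with DMSO and a 27-fold range with BMH-21. With DMSO the order of the levels was Atp6v1g1 at 493 FPKM, Atp6v0c at 376, Atp6v1f at 300, Atp6v0d1 at 217, Atp6v0b at 198, Atp6v0e at 87.1, Atp6v1d at 44.7, Atp6v1e1 at 39.1, Atp6v1b2 at 30.6 and Atp6v1a at 25.4 FPKM. With BMH-21, Atp6v0c (679 FPKM) stood above Atp6v1g1 (601 FPKM), Atp6v0b (299 FPKM) above Atp6v0d1 (189 FPKM), and Atp6v1a (27.7 FPKM) above Atp6v1b2 (25.1 FPKM). The place of Atp6v0c rests on how reads were split with its pseudogene row. Summed, their FPKM were 692 with DMSO and 1233 with BMH-21, but FPKM over unlike lengths do not add on 1 scale. The pseudogene record has 465 bases and the Atp6v0c transcript 1183 bases in GENCODE M21, so the rank of the pair was not settled. In both groups, every library of each gene was above every library of the next gene in the order. The spread between libraries was small, with an SD of 1.32% to 7.13% of the mean with DMSO and 0.799% to 8.48% with BMH-21. The catalytic and nucleotide-binding head subunits were thus the 2 lowest of the 10 in both groups on this per-length scale.

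Ratios between genes within a library are untouched by a scaling that multiplies all values of the library by 1 factor, and 5 such ratios were computed. The exact permutation test over 3 against 3 libraries cannot give a p below 0.10, and all 5 ratios gave 0.10 (two-sided, 0.10 after Benjamini-Hochberg adjustment over the 5). Atp6v1a over Atp6v1b2, the catalytic over the non-catalytic subunit, was 0.800, 0.833 and 0.855 with DMSO and 1.128, 1.102 and 1.076 with BMH-21, so the order of these partners turned in every library. The ring pair Atp6v0c over Atp6v0b was 1.79, 2.01 and 1.90 with DMSO and 2.36, 2.01 and 2.45 with BMH-21. In that pair BMH-21 replicate 2 all but touched DMSO replicate 2, and the value carries the uncertainty of the Atp6v0c pseudogene.

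Ratios of isoforms and of accessory subunits also differed in all libraries. Atp6v0d2, the d isoform known from osteoclasts, over Atp6v0d1 was 0.140, 0.159 and 0.149 with DMSO and 0.726, 0.745 and 0.662 with BMH-21. No BMH-21 ratio came near the DMSO ratios, and d1 stayed the higher of the pair in all 6 libraries. Tcirg1, the a3 subunit of lysosomes and of the osteoclast surface, over Atp6v0a1 was 4.06, 4.10 and 3.68 with DMSO and 5.92, 5.55 and 5.85 with BMH-21. Atp6ap1 over Atp6ap2, both accessory subunits of V0, was 1.16, 0.957 and 1.03 with DMSO and 1.35, 1.39 and 1.29 with BMH-21.

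The list of other subunits and isoforms had 13 genes, of which 7 were tested, 6 rose and 0 fell by limma, also at an unadjusted p under 0.05 (median 0.35 on the log2 scale, against −0.23 for all tested genes). Among all tested genes, 19.9% were called higher and 58.4% lower. Atp6v0d2 was at 29.3, 34.9 and 33.0 FPKM with DMSO and at 138, 134 and 131 FPKM with BMH-21, a log2 fold change of 2.02 ± 0.06 (SE; adjusted p = 2.44e-09 by limma). Tcirg1 was at 31.0, 31.9 and 30.2 FPKM with DMSO and at 59.6, 53.5 and 58.6 FPKM with BMH-21, a log2 fold change of 0.86. Both genes had higher values in every BMH-21 library. Atp6v0e2, the other e isoform, went from 24.3 to 35.4 FPKM (0.53), the regulatory H subunit Atp6v1h from 3.56 to 4.82 FPKM (0.35), the a1 isoform Atp6v0a1 from 7.87 to 9.91 FPKM (0.30) and the C subunit Atp6v1c1, which joins V1 to V0, from 65.6 to 72.4 FPKM (0.14). The Atp6v1c1 call was lost with equal column totals and against DMSO replicate 3 alone. Atp6v0a2, the a2 isoform, was at 15.2 and 15.4 FPKM and did not pass (adjusted p = 0.741 by limma). The Atp6v0a2 result rests on the scaling: it was called higher under median-ratio (0.25, adjusted p = 0.000255), upper-quartile (0.31, adjusted p = 6.75e-05) and quantile scaling (0.24, adjusted p = 0.000474) and lower with equal column totals (−0.10, adjusted p = 0.0489). Atp6v0a4 and Atp6v1c2 were at 0.0221 FPKM or less in every library and Atp6v1g2 at 0.159 to 0.845 FPKM, all under the filter. Every BMH-21 library of Atp6v1g2, a G isoform, was below every DMSO library (means of 0.233 and 0.632 FPKM), and with no filter it was called lower (−0.40, adjusted p = 0.0194 by limma).

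Osteoclast markers moved beside Atp6v0d2 and Tcirg1. Of 7 such markers, 5 were tested, 4 rose and 1 fell, where 19.9% of all tested genes were called higher and 58.4% lower. The list had a sum of 37.1 to 44.1 FPKM per DMSO library and 49.0 to 52.5 FPKM per BMH-21 library. Acp5 went from 9.67 to 11.1 FPKM (0.17, adjusted p = 0.0126 by limma). Dcstamp, needed for cell fusion, went from 0.626 to 4.29 FPKM. It was under 1 FPKM in every DMSO library and passed the filter only through the BMH-21 libraries. It could therefore be counted only as a rise. Cathepsin K, Ctsk, went from 23.1 to 28.0 FPKM, while Nfatc1, the master transcription factor of osteoclasts, went from 5.95 to 4.68 FPKM. Ocstamp was at 0.0759 to 0.25 FPKM in all libraries. Mmp9 was at 0.153 and 0.170 FPKM in DMSO replicates 1 and 2 and at 2.57 FPKM in DMSO replicate 3, which stood apart from its group as in the epithelial markers. With BMH-21 Mmp9 was at 3.49, 2.99 and 1.98 FPKM, so that it was called higher with overlapping groups. Their part in the changes of the pump genes was not tested.

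Of 15 accessory and assembly factors, 13 were tested, 5 rose and 3 fell (median 0.06). The shares over all tested genes were 19.9% higher and 58.4% lower. Rnasek, a small membrane protein found in the assembled pump, rose from 220 ± 1.2 to 436 ± 13 FPKM (SD, n = 3), or by 0.98 on the log2 scale (adjusted p = 1.1e-08 by limma). Vma21, an assembly factor of the endoplasmic reticulum, rose from 13.0 to 21.5 FPKM (0.68). Rogdi, which belongs to a complex that reassembles V1 with V0, fell from 16.3 to 8.76 FPKM (−0.82). Tbc1d24, of a family of proteins that bind the pump, fell from 1.65 to 0.984 FPKM (−0.42). Tbc1d24 was under 1 FPKM in BMH-21 replicates 2 and 3 and passed the filter through the DMSO libraries. With a filter of 5 FPKM it was not tested. Dmxl1, named after its values were seen, was among the rises (0.16, adjusted p = 0.0459 by limma) and passed the filter through the BMH-21 libraries. Atp6ap1 went from 32.8 to 38.1 FPKM (0.21) and Atp6ap2, the prorenin receptor, from 31.4 to 28.4 FPKM (−0.14). The count of rises in this list was 2 with equal column totals, 8 with median-ratio scaling, 10 with quantile normalization and 11 with upper-quartile scaling.

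The pump is also a platform for nutrient sensing, where Ragulator and the Rag GTPases dock to call mTORC1 and the TFEB family to the lysosome. Of 17 genes of this list, 16 were tested, 8 rose and 4 fell (median 0.13). The shares over all tested genes were 19.9% higher and 58.4% lower. The Ragulator genes Lamtor4 and Lamtor1 rose from 55.3 to 83.8 FPKM (0.59) and from 26.1 to 36.5 FPKM (0.47), and the GTPase gene Rragc from 125 to 156 FPKM (0.32). Genes that fell, the first 3 named after their values were seen, were Flcn, which acts on the Rag GTPases, from 19.8 to 16.1 FPKM (−0.28), the GTPase gene Rraga from 30.5 to 25.8 FPKM (−0.23), the Ragulator gene Lamtor2 from 380 to 344 FPKM (−0.14), and Tfe3. The groups overlapped for Lamtor2, and its call was lost when DMSO replicate 1 was left out, and likewise for replicates 1 and 3 of BMH-21. Among the transcription factors, Mitf rose from 5.24 ± 0.17 to 8.9 ± 0.67 FPKM (SD, n = 3), or by 0.66 on the log2 scale (adjusted p = 2.82e-06 by limma). Tfeb was at 3.25 ± 0.34 and 2.98 ± 0.13 FPKM and did not pass (−0.09, adjusted p = 0.226 by limma), but it was called higher with quantile normalization (0.24, adjusted p = 0.0103) and lower with equal column totals (−0.18, adjusted p = 0.0240). Tfe3 fell from 13.1 to 11.8 FPKM (−0.15, adjusted p = 0.0188 by limma). The Tfe3 direction turned under median-ratio (0.09), upper-quartile (0.15) and quantile (0.09) scaling, and the call was lost without DMSO replicate 1 or BMH-21 replicate 3. Falls in this list, 4 in number, went to 0 by limma with median-ratio and upper-quartile scaling (0 also at an unadjusted p under 0.05), to 1 with quantile normalization, and to 2 without DMSO replicate 1, without BMH-21 replicate 3 or against DMSO replicate 3 alone.

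Proton pumping needs counter-ions, which chloride exchangers and cation channels of the same membranes supply. Of 11 such genes, 9 were tested, 1 rose and 2 fell (median −0.02). The shares over all tested genes were 19.9% higher and 58.4% lower. Tpcn2, a cation channel of lysosomes, rose from 2.43 to 3.71 FPKM (0.46), Clcn3, a chloride and proton exchanger, fell from 6.01 to 3.65 FPKM (−0.59), and Tpcn1 fell from 25.7 to 22.8 FPKM (−0.16). The sign of Tpcn1 turned with median-ratio, upper-quartile and quantile scaling, and the number of rises went to 7 under median-ratio, 8 under upper-quartile and 7 under quantile scaling, and to 0 among genes with 5 FPKM or more. Falls numbered 1 under each of these 3 scalings and against DMSO replicate 3 alone, 4 with no filter and 6 with equal column totals.

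A related rotary machine, the mitochondrial ATP synthase, runs in the other direction and makes ATP. Of its 16 genes, 16 were tested, 7 rose and 6 fell (median 0.11). The shares over all tested genes were 19.9% higher and 58.4% lower. Its catalytic subunit gene Atp5b fell from 348 to 172 FPKM (−1.01) and Atp5a1 from 125 to 68.7 FPKM (−0.85), while the small subunit genes Atp5e and Atp5l rose from 78.5 to 144 FPKM (0.87) and from 52.4 to 83.3 FPKM (0.66). With median-ratio and upper-quartile scaling 11 and 12 rose and 2 fell in both. Whether these lists differed from the pump subunits was not tested.

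Of the 10 subunits, Atp6v0c, Atp6v1f, Atp6v0e and Atp6v0b rose most, and their coding sequences have 615 bases (Atp6v0b) or fewer. Atp6v1g1, at 354 bases, rose by only 0.29 on the log2 scale. Coding lengths ran from 312 bases for Atp6v0e, 354 for Atp6v1g1, 357 for Atp6v1f and 465 for Atp6v0c to 1053 for Atp6v0d1, 1533 for Atp6v1b2 and 1851 for Atp6v1a. Across the 10 genes, coding length and log2 fold change had a Pearson correlation of −0.77 (length on a log2 scale) and a Spearman correlation of −0.76, a description across genes that share the same 6 libraries. Over 9207 tested genes with a coding length the values were −0.25 and −0.28. The median change of tested genes was 0.14 at 301 to 500 bases (671 genes), −0.04 at 501 to 750 bases (1190 genes) and −0.34 at 1501 to 2000 bases (1406 genes). Atp6v0c, Atp6v1f, Atp6v0e and Atp6v0b were 0.71, 0.68, 0.66 and 0.63 above the median of their length class, and Atp6v1a was 0.46 above it. Atp6v1e1, Atp6v1b2, Atp6v0d1 and Atp6v1g1 were within 0.15 of it, at 0.04, 0.07, 0.10 and 0.14. Over the 17 tested subunits and isoforms together the correlations were −0.25 and −0.35. In that larger set Tcirg1 (2502 bases) and Atp6v0d2 (1050 bases) had the largest rises outside the 10 members.

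**Figure D3:**
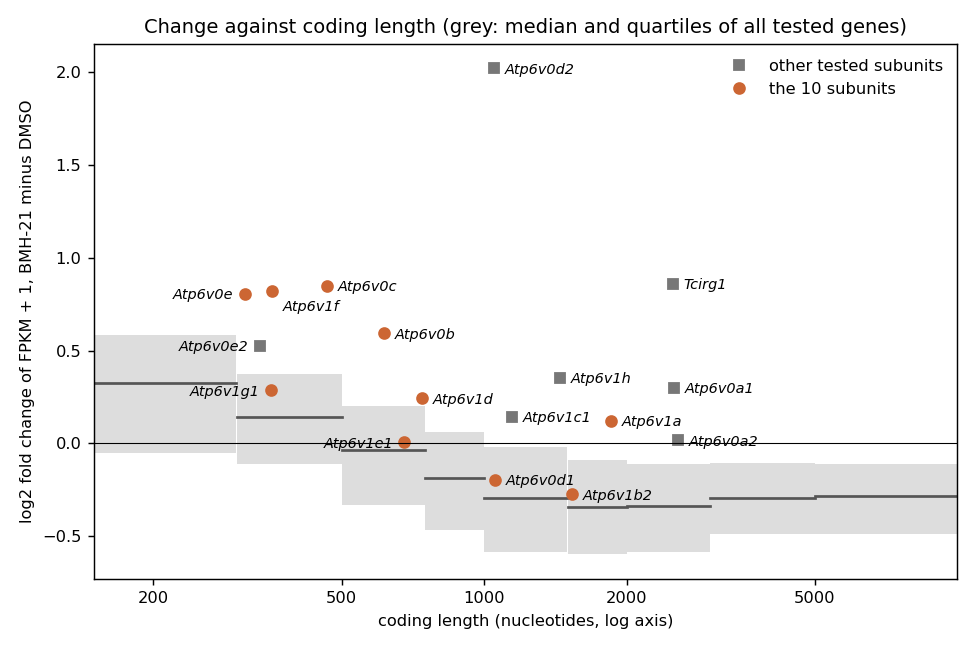
Log2 fold change of FPKM + 1, BMH-21 minus DMSO (vertical axis), against coding length in nucleotides (horizontal log axis); circles are the 10 subunits, squares the 7 other tested subunits, and grey bands with dark lines the quartiles and medians of all tested genes by length class. Short genes lie higher among the 10 subunits and among all tested genes. Of the squares, Atp6v0d2 and Tcirg1 lie far above genes of their length.

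Promoter sequence was read for the subunits that have an entry among the RefSeq windows of 300 bases on GRCm38.p6, 250 bases before to 50 after the start site. Entries were found for 8 of the 10 genes, and Atp6v1b2 and Atp6v1g1 had no match. The hexamer CACGTG, its own reverse complement, was present in the windows of 4 of the 8 genes (50%), compared with 12.6% of 7703 tested genes with a window and 8.09% of 27025 genes with one. Its longer form TCACGTGA, also the same on both strands, was in 3 of the 8 (37.5%), compared with 2.43% of tested genes, and GTCACGTG, searched on both strands and overlapping the hexamer, was in 2 (25%), compared with 5.28%. The GC box GGGCGG, on either strand, was in 6 of the 8 (75%), and in 71.1% of tested genes. The stretches that hold the hexamer are printed 5′ to 3′ on the strand of the gene, with CACGTG in capitals, so that the bases beside it can be compared:
Atp6v0b: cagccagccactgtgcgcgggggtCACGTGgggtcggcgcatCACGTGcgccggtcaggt
Atp6v0d1: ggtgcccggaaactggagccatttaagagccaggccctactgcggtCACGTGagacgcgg
Atp6v0e: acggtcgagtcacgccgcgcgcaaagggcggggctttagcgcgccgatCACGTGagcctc
Atp6v1a: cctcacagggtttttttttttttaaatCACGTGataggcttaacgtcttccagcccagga

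These stretches lie at chr4:117887330-117887389 (minus strand), chr8:105566054-105566113 (minus strand), chr17:26676351-26676410 (plus strand) and chr16:44139358-44139417 (minus strand). By the RefSeq start sites, the pair of hexamers in Atp6v0b began 36 and 18 bases before the start. In Atp6v0d1 the hexamer spanned the start site, beginning 3 bases before it. The hexamer of Atp6v0e began at base 4 of the transcript and that of Atp6v1a 131 bases before the start. GENCODE spans begin elsewhere, at 26663231 for Atp6v0e and 44139705 for Atp6v1a, so these stretches lie inside the genes. The Atp6v0d1 span begins at 105566047 on the minus strand, so its whole stretch lies before the gene. The bases after the RefSeq start of Atp6v0d1 were not found in its GENCODE transcripts. Of the 4 genes with the hexamer, Atp6v0b and Atp6v0e rose by 0.59 and 0.81, Atp6v1a by 0.12, and Atp6v0d1 fell by 0.20 on the log2 scale. Atp6v0c and Atp6v1f, with no CACGTG in these windows, rose by 0.85 and 0.82. Among the genes with a window, those with and those without the hexamer included both large and small changes. The part of the hexamer in the changes was not tested, and a match in the sequence says nothing of whether a factor was bound.

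**Figure D4:**
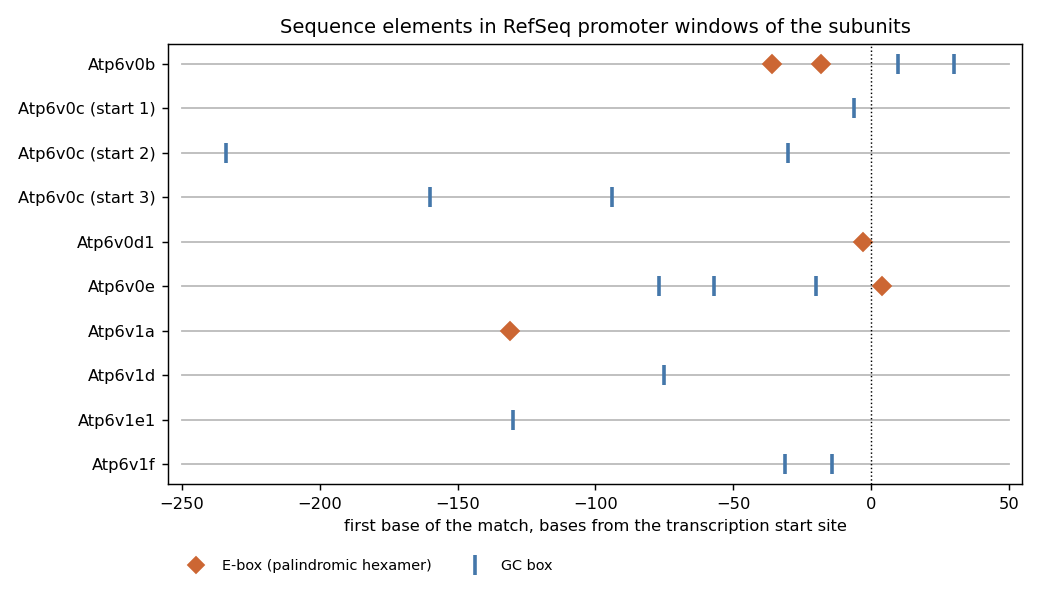
First base of each E-box hexamer (diamonds) and GC box (bars) in the promoter windows of 8 subunit genes, in bases from the RefSeq transcription start site (horizontal axis). Atp6v0c has 3 annotated starts. Hexamers appear in the windows of Atp6v0b, Atp6v0d1, Atp6v0e and Atp6v1a.

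The counts of rises and falls among the 10 subunits moved with the scaling between libraries. With median-ratio scaling, which shifted the median of all tested genes by 0.21, limma called 8 subunits higher and 0 lower. Upper-quartile scaling shifted it by 0.26 and gave 9 higher and 0 lower. Under both of these, 0 subunits were lower at an unadjusted p under 0.05 as well. Quantile normalization shifted it by 0.23 and gave 6 and 2. Equal column totals shifted it by −0.10 and gave 6 and 2. Among all tested genes the calls were 3477 higher and 3747 lower under median-ratio, 3873 and 3294 under upper-quartile and 3493 and 3545 under quantile scaling, and 1389 and 6623 with equal column totals. Relative to the median of all tested genes the subunits' median was 0.54, 0.55, 0.31 and 0.47 under these scalings, beside 0.50 as deposited. Atp6v0c, Atp6v1f, Atp6v0e and Atp6v0b were called higher under all of these scalings and with each library left out in turn.

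**Figure D5:**
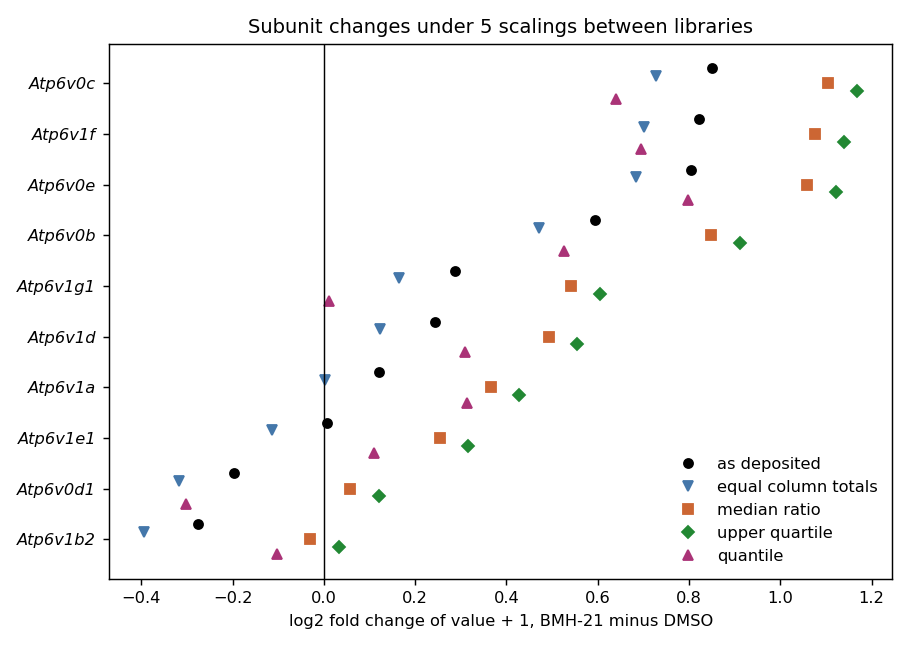
Log2 fold change of the 10 subunits, BMH-21 minus DMSO (horizontal axis), with the values as deposited and under 4 other scalings between libraries (symbols). The signs of Atp6v0d1, Atp6v1b2 and Atp6v1e1 depend on the scaling, and the 4 genes at the top lie above 0 in each.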

How the data were processed

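Polysome-fraction RNA of 3 BMH-21 and 3 DMSO libraries was compared, grouped by sample title. Oligo-dT enrichment was used, per the labels' protocols, and DMSO replicate 2 is labelled as polyadenylated RNA where the other 5 libraries are labelled total RNA. The authors deposited 1 table of FPKM values, a unit read from the values. Trimmomatic 0.38, HISAT2 and SAMtools with mm10 were used, per the submitters' processing notes, and for the counting tool and annotation the entry is: not given in the sources used here. Each FPKM is relative to its library, and the top 10 genes held 9.2% to 9.51% of the total in DMSO and 14.7% to 15.3% in BMH-21 libraries. Of low single-transcript genes, 75.5% to 77.6% lay within 0.01 of a whole read (genes of up to 20 reads), which gave the stated depths but was too few to recover counts.

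All genes that reached 1 FPKM in 3 or more libraries (9748, 50.7%) were fitted in limma 3.58.1 (R 4.3.3) on log2(FPKM + 1), with an intensity trend and Benjamini-Hochberg adjustment over all of them (threshold 0.05). Fold changes on this scale understate those of low genes. Separate cultures are not named in the labels, and the p-values reflect only how these libraries spread, which may be technical. In simulated data with 50 of 9748 genes changed at each size, this comparison called 48% of genes changed 1.2-fold, 94% of those changed 1.5-fold and 100% of those changed 2-fold, and called 11 of 9548 unchanged genes. The simulation held few changed genes, as many up as down, and no shift between libraries. In the data 78.3% of tested genes were called and 58.4% were lower, so these rates do not carry over to the data. The members and lists were chosen with earlier results of these data known. Named genes were all 10 members, every tested gene of the other subunits, up to 4 genes with the smallest p of each other list, and a few fixed markers and factors. One gene that this rule names is not reported here. Genes of the ratios and of the marker lists are named outside this rule. Coding lengths and positions came from GENCODE M21 (GRCm38, the assembly of mm10; 98.7% of tested genes matched), promoter windows from RefSeq. Values are per gene, over all its exons.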

Additional observations from a re-analysis of the deposited data

How the results depend on the processing

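Alternatives were other pseudocounts, filters and scalings, no intensity trend, a replicate block, and leaving out each library. As deposited, 7628 genes were called, 1938 higher and 5690 lower, and 9 of the 10 subunits, 7 higher and 2 lower. Requiring 5 FPKM gave 5040 calls, 3465 of them lower. Calls higher and lower were 3477 and 3747 with median-ratio, 3873 and 3294 with upper-quartile scaling, and 3493 and 3545 with quantile normalization. Subunits called lower by limma were 0 with median-ratio and upper-quartile scaling (0 also at an unadjusted p under 0.05). With the replicate block 7502 genes and 9 subunits were called. Same-numbered libraries share only a number (correlations of their deviations from the group means −0.11, −0.09 and −0.06), and no library correlated best with its own number. Leaving out 1 library gave 6895 to 7367 genes and 8 to 9 subunits.

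Signs turned for Atp6v0d1 (0.057 with median-ratio, 0.12 with upper-quartile scaling), Atp6v1b2 (0.032, upper-quartile), Atp6v0a2 (−0.099 with equal column totals, −0.011 against DMSO replicate 3 alone) and Atp6v1e1 (−0.11 with equal column totals, −0.0051 against DMSO replicate 3 alone, −0.034 to 0.055 leaving out 1 library, as for Atp6v1e1 without DMSO replicate 1 at −0.011 and without BMH-21 replicate 1 at −0.0037). With median-ratio, upper-quartile and quantile scaling in turn, Tpcn1 was at 0.082, 0.14 and 0.054, Tfeb at 0.10, 0.15 and 0.24, and Tfe3 at 0.087, 0.15 and 0.085. Csf1r turned with median-ratio (0.061) and upper-quartile scaling (0.12), Cd68 (−0.040) and Mrc1 (0.0057) with quantile normalization. The cause was not tested.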
